A study of Mus musculus with 4 samples.

Results

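The genes that make, load, clear and break down the inhibitory transmitter GABA were followed through the H3K27ac map of the mouse hippocampus. They are Gad1 and Gad2 (synthesis), Slc32a1 (vesicle loading), Slc6a11 (uptake) and Abat (breakdown), 5 of the 21938 protein-coding genes of GENCODE M21. The set was named by function, although it was chosen with earlier results of these data known. Each gene's body with 20 kb on both sides was searched for peaks. Gad1, Gad2 and Slc32a1 were counted as interneuron genes, and Slc6a11 and Abat as astrocyte genes, although Abat is known from neurons as well. H3K27ac, acetylation of histone H3 at lysine 27, marks active promoters and enhancers and was mapped by ChIP-seq, which sequences the DNA bound to the modified histone. All 4 samples came from hippocampal layer tissue of adult male B6CASTF1/J mice, hybrids of the C57BL/6 and CAST strains, aged 2 months. They formed 1 condition with no treated or control arm. The tissue was pooled before the assay, as pool C (biological replicate 1) and pool D (biological replicate 2), each of 7 biosamples with 2 technical replicates, so a single animal cannot be followed.

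GABA is made from glutamate by glutamate decarboxylase, which Gad1 and Gad2 encode, and is packed into synaptic vesicles by the vesicular transporter of Slc32a1. After release it is taken up again by membrane transporters, among them that of Slc6a11, which in the forebrain is known mainly from astrocytes. Abat encodes GABA transaminase, the mitochondrial enzyme that starts GABA breakdown. In the hippocampus GABA-releasing interneurons are a minority among excitatory pyramidal and granule cells, and astrocytes surround the synapses of both.

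The data were 4 peak lists on build mm10: a replicated list of 88930 peaks, a pool C list of 94836, a pool D list of 63623 and a list of 102643 from both pools together. Pool C peaks had a median width of 894 bp and covered 122.9 Mb, and pool D peaks were narrower (743 bp) and covered 64.5 Mb. Read totals are unknown here, so a region without a peak is one where the mark was not detected at this depth. Each signal is the authors' own value for the peak and was compared within a list only. Marker genes of the tissue's expected cells were checked: a promoter peak was found in the replicated list at 8 of 8 excitatory neuron genes, 15 of 15 astrocyte genes, 5 of 5 oligodendrocyte genes, 3 of 5 microglia genes and 9 of 20 interneuron genes. Among all protein-coding genes the share with one was 61.6%.

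A promoter peak, which overlaps the 1 kb on either side of a transcription start site (TSS) of the gene, was found in the replicated list at 4 of the 5 genes (80.0%, 95% Wilson interval 37.6 to 96.4%), beside 61.6% of all protein-coding genes. The pool C list had one at 5 of 5 genes (interval 56.6 to 100%), beside 62.3% of coding genes. In the pool D list it was 3 of 5 (60.0%, interval 23.1 to 88.2%), beside 57.9%. The list from both pools together had 5 of 5, beside 62.5%. These intervals cover the counting of 5 genes and no biological spread, and the background lies within each of them. Gad1, Slc6a11 and Abat were marked in all of the lists, while Gad2 and Slc32a1 were marked in some.

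The promoter sequences are shown so that genes with a peak in each pool can be set beside those without one in pool D. They span 250 bases before to 50 after the RefSeq start on the plus strand of GRCm38.p6, and capitals mark the motif GGGCGG on either strand, the core bound by Sp-family factors. RefSeq windows were matched for 4 of the 5 genes (not Abat). The windows lie at chr2:70561879-70562178 (Gad1), chr2:22622077-22622376 (Gad2), chr2:158610508-158610807 (Slc32a1) and chr6:114130991-114131290 (Slc6a11).
Gad1: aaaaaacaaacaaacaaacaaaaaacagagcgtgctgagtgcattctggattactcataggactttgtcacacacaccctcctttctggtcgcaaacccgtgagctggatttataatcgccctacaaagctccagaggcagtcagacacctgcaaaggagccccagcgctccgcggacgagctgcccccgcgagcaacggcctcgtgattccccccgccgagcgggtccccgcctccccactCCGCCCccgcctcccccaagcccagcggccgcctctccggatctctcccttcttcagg
Gad2: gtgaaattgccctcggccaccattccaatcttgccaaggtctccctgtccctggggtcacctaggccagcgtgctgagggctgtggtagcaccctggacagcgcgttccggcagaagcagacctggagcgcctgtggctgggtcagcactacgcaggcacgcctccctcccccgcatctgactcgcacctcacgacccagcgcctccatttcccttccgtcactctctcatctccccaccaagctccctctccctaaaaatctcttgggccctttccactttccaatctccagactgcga
Slc32a1: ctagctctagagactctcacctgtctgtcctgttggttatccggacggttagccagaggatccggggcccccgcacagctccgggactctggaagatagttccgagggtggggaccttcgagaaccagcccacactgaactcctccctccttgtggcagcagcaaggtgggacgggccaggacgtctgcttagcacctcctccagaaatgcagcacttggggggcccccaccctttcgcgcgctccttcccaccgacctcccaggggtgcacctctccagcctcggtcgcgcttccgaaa
Slc6a11: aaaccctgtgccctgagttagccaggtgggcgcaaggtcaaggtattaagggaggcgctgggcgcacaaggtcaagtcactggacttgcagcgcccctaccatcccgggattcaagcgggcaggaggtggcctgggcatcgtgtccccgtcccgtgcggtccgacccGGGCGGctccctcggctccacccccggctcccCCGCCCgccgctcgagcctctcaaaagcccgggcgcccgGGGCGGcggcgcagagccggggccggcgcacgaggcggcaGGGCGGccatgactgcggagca

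Gad1 and Slc6a11, both with a peak in each list, had 21 and 32 CpG dinucleotides in these 300 bases and an observed over expected CpG ratio of 0.85 and 0.82. Gad2 and Slc32a1, with no pool D peak, had 14 and 17 CpG dinucleotides and ratios of 0.54 and 0.57. The median of 32851 RefSeq promoters of the same length was 7 CpG dinucleotides and a ratio of 0.38, so all 4 windows were above it. The GC content was 60.0% in Gad1, 72.3% in Slc6a11, 61.3% in Gad2 and 63.3% in Slc32a1, and the median of all windows was 52.7%. GGGCGG occurred once in the Gad1 window, 8 bases before the RefSeq start, and at 4 places in the Slc6a11 window, and 35.7% of all promoters of that length hold it. The letters of TAATTA (5.29% of promoters), TGACGTCA (1.79%), CAGCTG (16.3%), TGANTCA (7.81%) and the NFI palindrome, TTGGC and GCCAA 5 bases apart (0.0365%), were found on neither strand of the 4 windows. These are matches of letters in 4 windows and not evidence of binding. The CpG contrast depended on the window. In 300 bases at the summit of the strongest replicated promoter peak, Gad2 had 27 CpG dinucleotides (ratio 0.91). That lay between Gad1 (23, ratio 0.71) and Slc6a11 (35, ratio 0.97).

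Gad1, which encodes the decarboxylase form that makes GABA throughout the neuron, carried the widest H3K27ac of the 5 genes. It lies on chromosome 2 from 70553072 to 70602014 on the plus strand (ENSMUSG00000070880.10). Its promoter peak, 70560909 to 70564981 in the replicated list, was 4073 bp wide, more than 96.3% of all peaks, and its summit lay 271 bp past the main TSS in an exon. The signal there was 12.38 in the replicated list, above 42.7% of the coding genes with a promoter peak. It was 15.18 in the pool C list (above 46.6%) and 9.23 in the pool D list (above 41.9%). The signal was thus middling among genes with a promoter peak in both pools. Among all replicated peaks, the base of the width rank, it was above 89.9%. The promoter peak was 4193 bp wide in pool C and 3081 bp in pool D. The antisense gene Gad1os starts 1315 bp past the Gad1 main TSS inside this peak, and the mark cannot be split between them.

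Covered length, the bp that peaks take up in the 10 kb on either side of the main TSS, was 7192 bp at Gad1 in the replicated list, 7702 bp in pool C and 3430 bp in pool D. These exceeded 93.0%, 93.5% and 86.8% of coding genes, whose medians were 1493, 1523.5 and 994.5 bp. The pool D value was less than that of pool C, as it was for the coding genes as a whole, but its rank stayed high. Across the whole Gad1 locus of 88.9 kb the replicated list held 8 peaks that covered 14.0% of it, pool C 11 peaks (15.43%) and pool D 5 peaks (7.87%). Every one of them lay within the gene, and each was nearer to a Gad1 TSS than to that of another coding gene.

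Beyond the promoter, the Gad1 introns held a string of peaks. One at 70565116 to 70567500 (signal 4.51) lay over an annotated Gad1 TSS downstream of the main one. The strongest, at 70591395 to 70593700, had a signal of 7.25 in the replicated list, 8.58 in pool C and 5.13 in pool D, and its summit was 30786 bp past the main TSS. It exceeded 89.6% of the 65346 replicated peaks that lay over 1 kb from any TSS, whose median signal was 3.82. A further intronic peak at 70586267 to 70587811 had 5.64 in the replicated list, 6.36 in pool C and 5.03 in pool D. Both pools therefore listed these peaks, whereas 3 of the 8 replicated peaks of the locus were overlapped by pool C peaks alone.

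The centres of 2 intronic peaks that both pools listed are shown, the strongest of Gad1 and the strongest replicated one of Slc6a11, as an example from an interneuron and an astrocyte gene. The stronger intronic peak of Abat is given below by its values alone. The sequences are 200 bases of the plus strand of GRCm38.p6 at the summit, chr2:70592728-70592927 (Gad1) and chr6:114159250-114159449 (Slc6a11), with CAGCTG, a form of the E-box bound by basic helix-loop-helix factors, in capitals.
Gad1 intron: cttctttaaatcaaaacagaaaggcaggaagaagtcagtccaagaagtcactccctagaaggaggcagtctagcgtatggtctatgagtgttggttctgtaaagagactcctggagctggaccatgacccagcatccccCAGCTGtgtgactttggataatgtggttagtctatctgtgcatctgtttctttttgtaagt
Slc6a11 intron: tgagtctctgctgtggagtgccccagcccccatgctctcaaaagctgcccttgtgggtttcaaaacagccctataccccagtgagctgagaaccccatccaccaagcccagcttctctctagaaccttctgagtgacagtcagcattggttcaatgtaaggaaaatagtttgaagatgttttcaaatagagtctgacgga

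Both sequences held 1 CpG dinucleotide, with a GC content of 45.0% in the Gad1 intron and 49.0% in the Slc6a11 intron. CAGCTG occurred in the Gad1 one and in none of the positions of the other, and none of the other motifs was found in either. Over 300 bases at each of the 27 replicated summits in the 5 loci, CAGCTG was found in 7 (25.9%), beside 18.8% of all 88930 replicated summits. GGGCGG was found in 3 (11.1%), beside 12.3%, and the other 4 motifs in none. At the 19 summits over 1 kb from any TSS the CpG ratio was 0.05 to 0.53, and at the strongest promoter peak of each gene it was 0.71 for Gad1, 0.91 for Gad2, 0.97 for Slc6a11 and 0.84 for Abat. It was 0.77 at the weaker Gad2 promoter peak and 0.23, within the range of the distant summits, at the second promoter peak of Gad1.

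**Figure D1:**
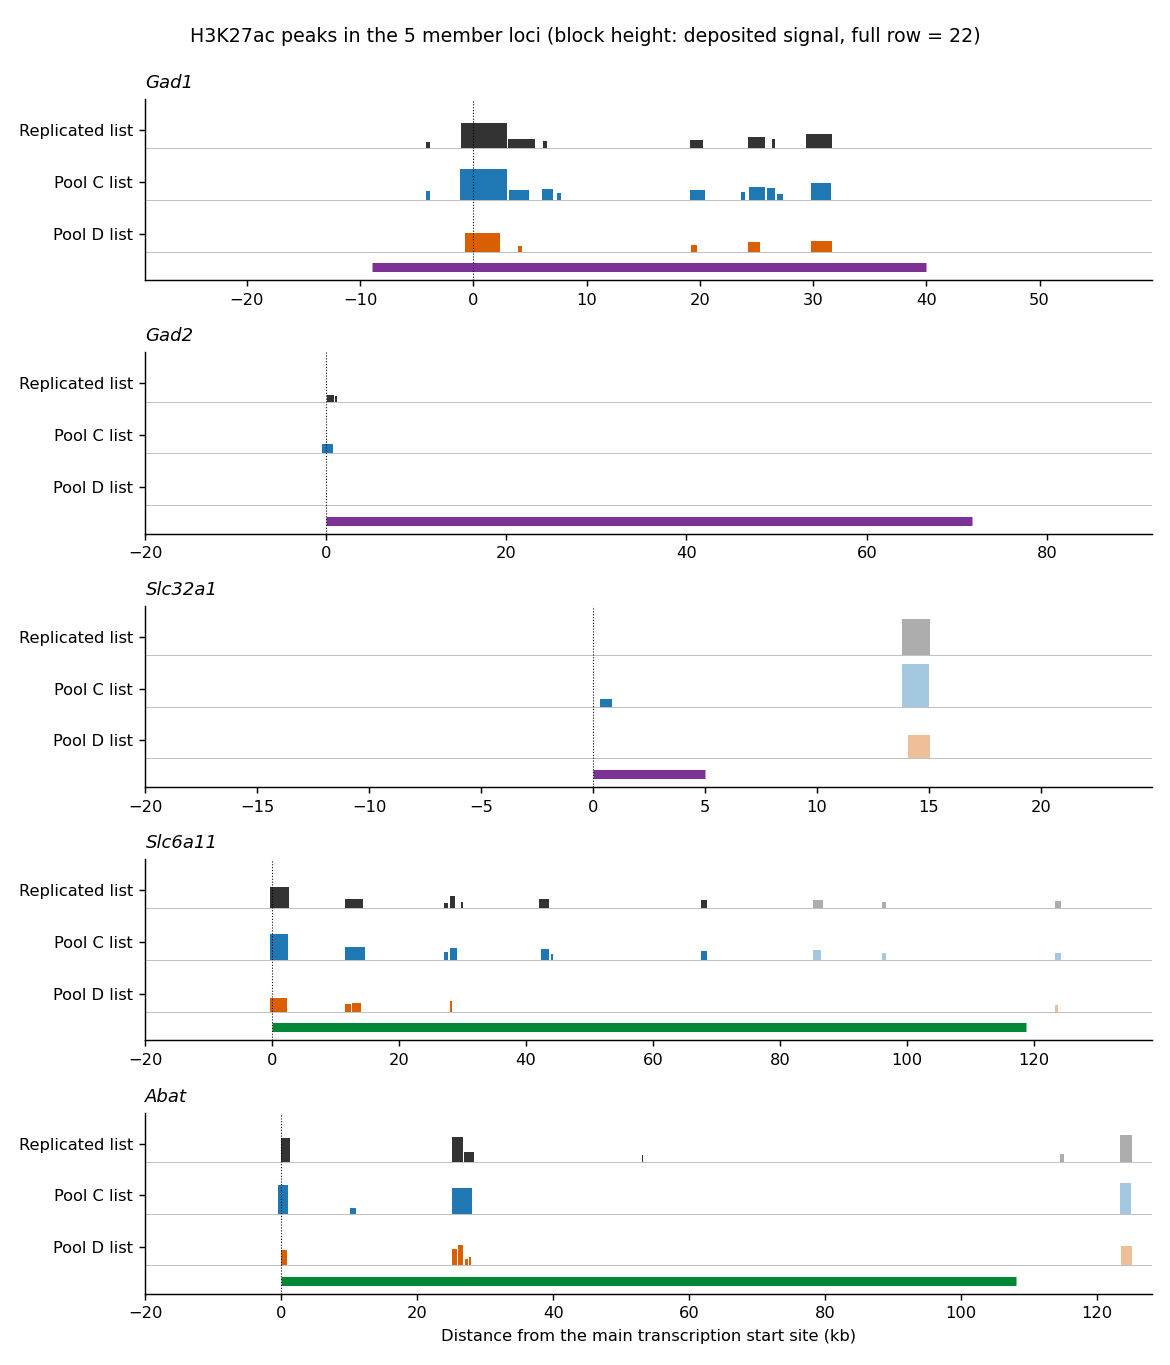
Peaks in the 5 loci, by distance from the main TSS in kb (x axis), with a row for each list and block height proportional to the deposited signal (a full row is 22). Pale blocks are nearer to a TSS of another coding gene, and the bar under each plot is the gene, purple for interneuron and green for astrocyte genes. Gad1 has 8 replicated peaks and Slc6a11 10, while Gad2 has 2 near its start, and the Slc32a1 locus has 1, which lies beyond the gene.

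Gad2, which encodes the decarboxylase form known from nerve terminals, was marked weakly, and of the pools in C alone. It lies on chromosome 2 from 22622205 to 22693874 on the plus strand (ENSMUSG00000026787.3). The replicated list held a peak of 756 bp at 22622335 to 22623090 with a signal of 3.01, above 1.1% of the coding genes with a promoter peak, and one of 307 bp at 22623190 to 22623496 with a signal of 2.78. The first was overlapped by a pool C peak alone and the second by neither pool. In the pool C list a single peak of 1141 bp, with a signal of 4.42 (above 4.3% of marked genes), spanned the TSS. No pool D peak lay anywhere in the 111.7 kb locus. Covered length was 1063 bp in the replicated list, 1141 bp in pool C and 0 bp in pool D. Each of these was below the Gad1 value of the same list.

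Slc32a1, the gene of the vesicular transporter, had no replicated promoter peak. It is a short gene of 5.0 kb on chromosome 2, from 158610767 to 158615748 on the plus strand (ENSMUSG00000037771.11). Pool C listed a peak of 519 bp in an exon at 158611067 to 158611585, with a signal of 3.9 (above 2.3% of marked genes), which started 300 bp past the TSS. The list from both pools together had a peak at the same place with a signal of 3.01, and the pool D list had none. The TSSs of the non-coding gene Gm14204 lie 44 to 177 bp from that of Slc32a1, and that of the antisense gene Gm14205 lies 1053 bp away, so a weak peak here cannot be assigned to 1 of them.

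The single replicated peak of the Slc32a1 locus belonged to a neighbour. It spanned 158624550 to 158625822 over the TSS of Actr5, a subunit gene of the INO80 chromatin remodelling complex. Its signal was 18.16 in the replicated list, 21.33 in pool C and 11.96 in pool D. The mark was therefore found in both pools 14121 bp from the Slc32a1 TSS, and its absence at Slc32a1 itself in pool D is not an absence of peaks from the region.

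Slc6a11, the gene of the astrocyte GABA transporter, had a promoter peak in each list. It lies on chromosome 6 from 114131241 to 114249952 on the plus strand (ENSMUSG00000030307.8). The replicated promoter peak, 114130948 to 114133797, was 2850 bp wide with its summit 244 bp past the TSS in an exon. Its signal was 10.64 in the replicated list (above 33.7% of marked genes), 13.13 in pool C (above 37.0%) and 7.13 in pool D (above 25.4%). Covered length was 2850 bp in the replicated list, 2815 bp in pool C and 2564 bp in pool D, above 70.4%, 69.5% and 79.6% of coding genes. The width of this promoter peak changed less between the pools than that of Gad1.

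The Slc6a11 locus held 10 replicated peaks over 158.7 kb, which covered 8.11% of it, with 10 in pool C (8.33%) and 5 in pool D (3.53%). Of the replicated ones 7 were nearest to a Slc6a11 TSS, and the others were nearer to a TSS of another coding gene. Apart from the promoter, the highest signal in the replicated and pool D lists was at the intronic peak of 114159221 to 114159978, with 6.13 in the replicated list, 6.15 in pool C and 5.45 in pool D. It exceeded 83.5% of the replicated peaks over 1 kb from any TSS. A wide intronic peak of 2842 bp at 114142670 to 114145511 had 4.46 in the replicated list and 6.76 in pool C, where it was the higher of these, and pool D had 2 peaks there with 3.78 and 4.2. Of the 10 replicated peaks, 4 were overlapped by peaks of both pools, 5 by pool C peaks alone and 1 by neither.

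Abat combined a compact promoter peak with an intronic peak of about the same signal. It lies on chromosome 16 from 8513429 to 8621568 on the plus strand (ENSMUSG00000057880.12). The promoter peak, 8513419 to 8514702, had a signal of 12.02 in the replicated list (above 40.8% of marked genes), 14.19 in pool C (above 42.0%) and 7.56 in pool D (above 29.2%). Covered length was 1284 bp in the replicated list, 1430 bp in pool C and 745 bp in pool D, above 46.0%, 48.0% and 45.1% of coding genes. The covered length of Abat was therefore near the middle of all coding genes in each list. That base includes the genes with no peak in the window, whereas the signal ranks are among marked genes only.

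The intronic Abat peak at 8538573 to 8540159, with its summit 26275 bp past the main TSS, had a signal of 12.26 in the replicated list. This was above 98.2% of the replicated peaks over 1 kb from any TSS. Pool C listed the region as 1 peak of 2874 bp with a signal of 12.72, and pool D listed 2 peaks with 8.18 and 10.28. In the pool D list both of these were above the promoter signal of 7.56, whereas in pool C the promoter, at 14.19, was above the intronic peak. A second intronic peak followed at 8540366 to 8541731 with a signal of 4.86. At the far end of the locus a peak at 8636749 to 8638536 (signal 13.36) lay over the TSSs of Pmm2, a phosphomannomutase gene, and Tmem186.

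**Figure D2:**
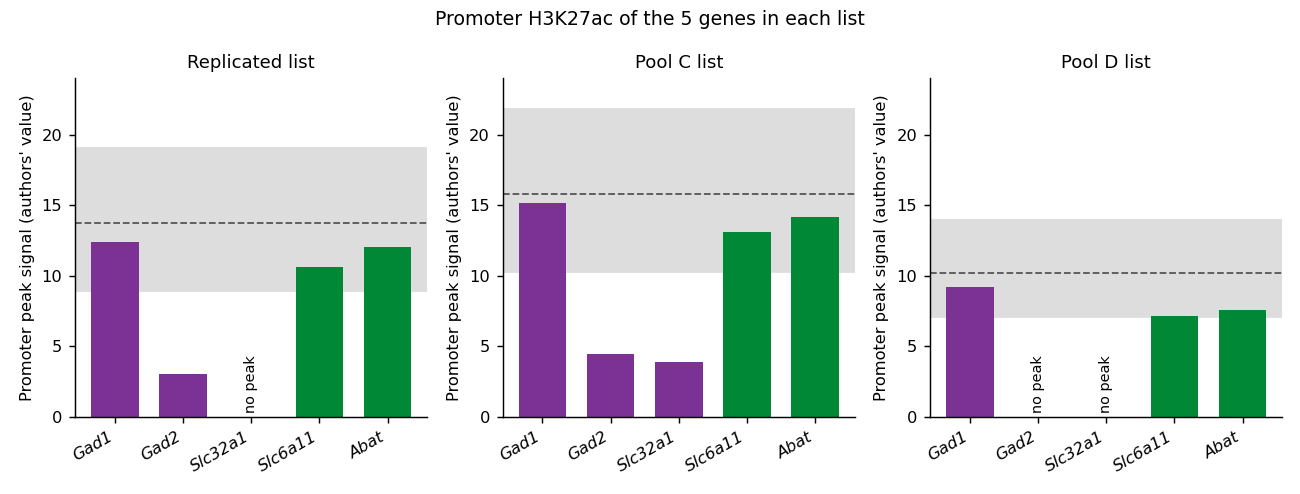
Promoter peak signal of the 5 genes (y axis, the authors' value) in each list, with a panel per list, purple bars for interneuron and green bars for astrocyte genes. The dashed line and grey band are the median and quartiles of all coding genes with a promoter peak (8.91, 13.76 and 19.08 in the replicated list). Gad1, Abat and Slc6a11 lie between the lower quartile and the median, and Gad2 and Slc32a1 lie below the band or have no peak.

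Set in order of promoter signal, the genes ran Gad1, Abat, Slc6a11, Gad2 and Slc32a1 in the pool C list, and the order of those marked was the same in the replicated and pool D lists. With 1 list per pool there is no replicate error on a signal, but the rank among marked genes can be set beside its range over the pools. Gad1 ranked above 41.9 to 46.6% of marked genes in the pools and Abat above 29.2 to 42.0%, so the ranges of these neighbours overlapped. Slc6a11, above 25.4 to 37.0%, overlapped Abat in the same way. Gad2 and Slc32a1, with ranks in pool C alone of 4.3% and 2.3%, lay below the others. No test was made over the genes.

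The interneuron and astrocyte genes were compared over the lists. A promoter peak was found at 2 of 3 interneuron genes and 2 of 2 astrocyte genes in the replicated list, at 3 of 3 and 2 of 2 in pool C, and at 1 of 3 and 2 of 2 in pool D. All coding genes had one in 61.6%, 62.3% and 57.9% of cases, and 3 and 2 genes are too few to set apart from these shares. Mean covered length was 2752 bp at the interneuron genes and 2067 bp at the astrocyte genes in the replicated list, and 3121 and 2122 bp in pool C. In pool D the order turned, with 1143 bp at the interneuron genes and 1654 bp at the astrocyte genes. The interneuron mean rested on Gad1, which had more covered length than both astrocyte genes in each list, while Gad2 and Slc32a1 had less than both in each list. As a share of the whole locus the groups lay close together, at 5.93% for interneuron and 6.36% for astrocyte genes in the replicated list, 6.77% and 6.43% in pool C, and 3.34% and 3.24% in pool D. These shares include peaks over the TSSs of neighbours. The Actr5 peak made up all of the Slc32a1 share in the replicated (2.83%) and pool D (2.16%) lists. The Abat share included the Pmm2 and Tmem186 peak, 1788 bp in the replicated list and 1538 bp in pool D. The closeness of the shares is therefore not that of the GABA genes alone. The difference in mean covered length, interneuron minus astrocyte, was thus 999 bp in pool C and -511 bp in pool D, so its sign depended on the pool. In bulk tissue, fewer cells of a type and less of the mark in each cell cannot be told apart.

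**Figure D3:**
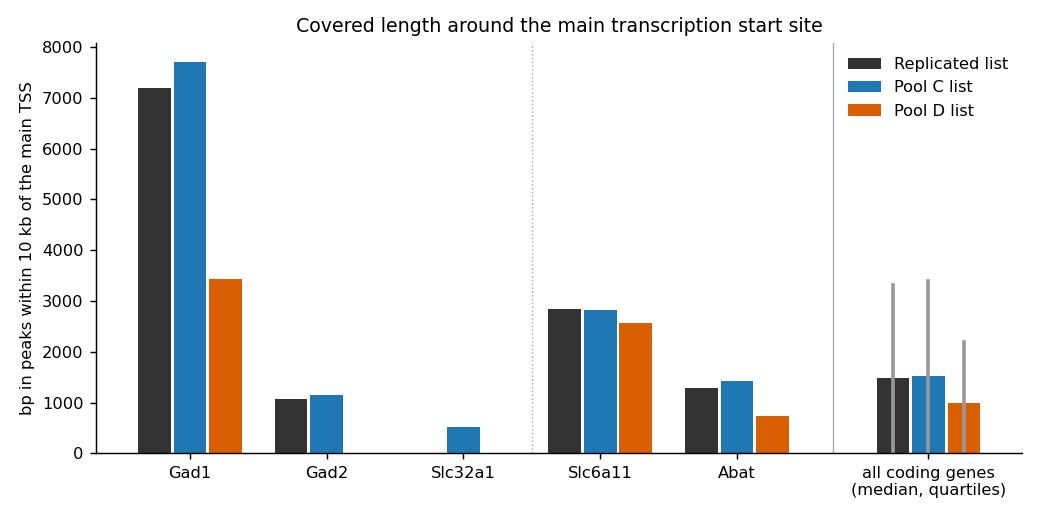
Covered length within 10 kb of the main TSS (y axis, bp) of each gene in the replicated list (black), the pool C list (blue) and the pool D list (orange), with interneuron genes left of the dotted line, astrocyte genes right of it, and the median of all coding genes at the far right (grey lines are quartiles). Gad1 is the highest in each list, and Gad2 and Slc32a1 have no bar in pool D.

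Marker genes of the same cell types were set beside these groups. Of 20 interneuron markers, 9 had a replicated promoter peak, 11 a pool C peak and 6 a pool D peak, and all 15 astrocyte markers had one in the replicated and both pool lists. The shares of all coding genes were 61.6% in the replicated list, 62.3% in pool C and 57.9% in pool D. Covered length in the replicated list was 0 to 7506 bp at the interneuron markers (median 0) and 2113 to 15744 bp at the astrocyte markers (median 7555). In pool C it was 0 to 7727 bp against 2818 to 15512 bp, and in pool D 0 to 5000 bp against 903 to 12660 bp, so the lists overlapped in each. The strongest interneuron markers were the potassium channel gene Kcnc1 (14.69), the cholecystokinin gene Cck (11.91) and the transcription factor genes Satb1 (10.64) and Sox6 (8.79). The Sox6 peak also held a TSS of the coding gene 1110004F10Rik, and Satb1 and Sox6 had 0 bp covered around their main TSS in the replicated list. Cck and Satb1 are also known from excitatory neurons. Calb2, of the calcium-binding protein calretinin, and Dlx1, a homeobox factor of the interneuron lineage, had no replicated promoter peak, nor did Sst, Pvalb and Vip, which were chosen after their values were seen. Among astrocyte markers the glutamate transporter genes Slc1a2 (25.21) and Slc1a3 (16.31), with Clu (19.43), had the highest signals. How far the makeup of cells in the tissue sets the values of the 5 GABA genes was not tested.

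**Figure D4:**
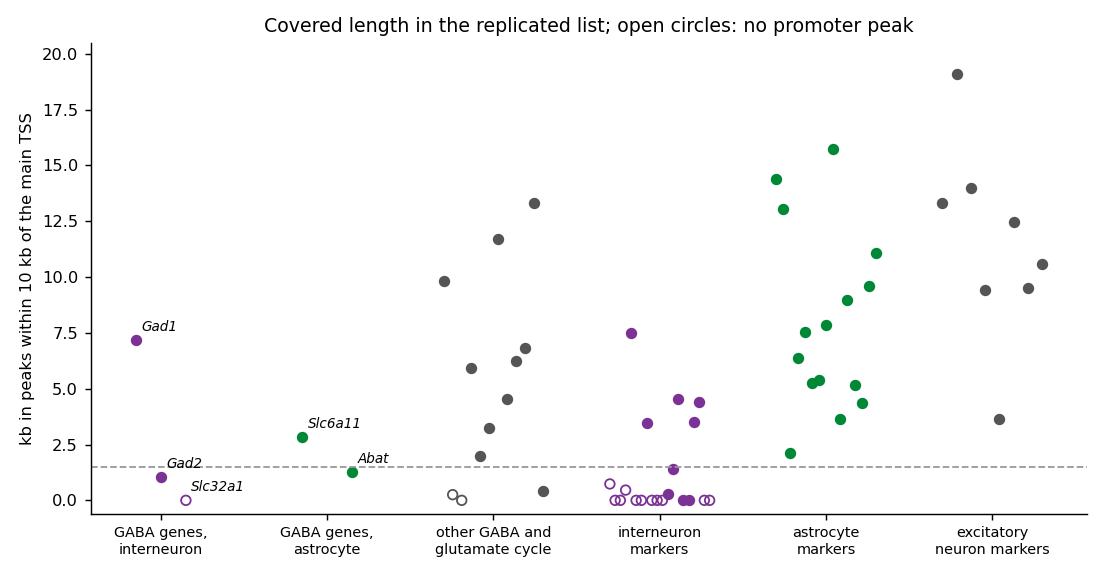
Covered length within 10 kb of the main TSS in the replicated list (y axis, kb), 1 point per gene, for the 3 interneuron and 2 astrocyte GABA genes, the 12 other genes of the GABA and glutamate cycle, and the marker lists of interneurons, astrocytes and excitatory neurons. Open circles have no promoter peak, filled circles at 0 have one at a TSS outside the window, and the dashed line is the median of all coding genes. Gad1 (7192 bp) lies above the other GABA genes of the set, while many interneuron markers lie at 0.

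The rest of the GABA and glutamate cycle gave a further setting for the 5 genes. Of its 12 genes, 10 had a replicated promoter peak, 9 a pool C peak and 9 a pool D peak, beside 61.6%, 62.3% and 57.9% of all coding genes. The GABA transporter genes Slc6a12 and Slc6a13, known largely from cells outside the neurons, had no promoter peak in any of the lists. Past transaminase, Aldh5a1, of the next enzyme of GABA breakdown, had a promoter signal of 20.7 and a covered length of 5911 bp in the replicated list, more than Abat in both. Aldh9a1, which acts in a minor route from putrescine to GABA, had a promoter signal of 9.68.

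Genes that handle glutamate and glutamine included some with a higher replicated promoter signal than Gad1 (12.38), the highest of the 5 GABA genes. In the replicated list the glutamine synthetase gene Glul, an astrocyte enzyme gene, had 19.32 and a covered length of 11708 bp, and its promoter peak also held a TSS of Teddm2. The glutamine transporter genes Slc38a1, Slc38a2 and Slc38a3 had 20.26, 29.96 and 6.79. The vesicular glutamate transporter gene Slc17a7, the excitatory counterpart of Slc32a1, had 14.94 with 13330 bp covered, beside no peak and 0 bp at Slc32a1. Slc17a6, of the form used mainly by subcortical neurons, had 2.6 in the replicated list and no promoter peak in either pool list.

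Of the 27 replicated peaks in the 5 loci, 14 (51.9%, Wilson interval 34.0 to 69.3%) were overlapped by peaks of both pools, beside 54% of all replicated peaks. The interval treats the 27 peaks as independent, although they cluster in 5 loci, and covers no biological spread. Pool C alone overlapped 9 (33.3%, beside 30.1%), neither pool 4 (14.8%, beside 14.4%) and pool D alone 0, which allows a share of up to 11.1% (beside 1.5%). By gene, both pools overlapped 5 of 8 peaks at Gad1, 0 of 2 at Gad2, 1 of 1 at Slc32a1 (the Actr5 peak), 4 of 10 at Slc6a11 and 4 of 6 at Abat. The loci were therefore shared between the pools about as often as the list as a whole. Of the 27 summits, 20 lay within the gene but outside the exons of its main transcript, 3 in those exons and 4 outside the gene. The 20 include a Gad1 summit upstream of the main TSS, and exons of other transcripts were not considered. The pool lists held 28 peaks in these loci in pool C and 17 in pool D.

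The coding genes most like each GABA gene were sought by 6 ranks, those of promoter signal and covered length in the replicated, pool C and pool D lists, taken over all coding genes with a missing promoter peak set to a signal of 0. For Gad1 the nearest were Actn4 (4.81 percentile points away) and Bpgm (5.12). Gad2, whose pool D ranks were both ties at 0, was nearest to 4933428G20Rik (1.58) and Pde3a (1.91), and Slc6a11 to Qpctl and Snrpd2 (4.23 each). Qpctl and Snrpd2 had the same replicated promoter signal (10.44) and covered length (3003 bp). Whether they share a promoter peak was not checked, so they may not be separate matches. The nearest to Abat were 2410004B18Rik (3.99) and Wdr7 (4.73). None of these 8 genes is on the pathway or marker lists, and no search was made for Slc32a1, since the rule took genes with a replicated promoter peak.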

How the data were processed

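H3K27ac ChIP-seq of 4 hippocampal samples was used as 4 narrowPeak lists on mm10, deposited by the authors. Per the sample text, these are a replicated list, a list for each pool with its technical replicates joined, and one for both pools together. Names of aligner and peak caller were not given in the sources used here. Each peak's signal was deposited by the authors with no stated scaling. Their p and q values per peak were deposited on a −log10 scale, beside the summit. Of the 27 replicated peaks in the 5 loci, 26 had the same start, end and signal in the list from both pools together, so these lists are not independent.

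Read totals are unknown, and depth may differ between the pools. None of 350032 peaks ended beyond its chromosome on GRCm38. Genes and TSSs came from GENCODE M21 and promoter sequences from RefSeq (GRCm38.p6). The main TSS was that of the APPRIS principal transcript, then by support level and length. Ranks of promoter signal are the percent of coding genes with a promoter peak in the same list that had a lower signal. Ranks of covered length are over all coding genes, with ties counted at their middle. No test was made: 1 condition with 2 pools gives descriptions, with 95% Wilson intervals for counts and an upper limit of 3 counts for a count of 0. The genes and lists were chosen with earlier results of these data known. The text names the 5 genes, every pathway gene, up to 4 markers per list with the highest signal and 2 without a peak, 2 nearest genes and the neighbours; others were chosen after their values were seen. A few genes under this rule are not reported here. The 6 motifs, none of which overlaps another in the printed sequences, were searched on both strands.

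Alternatives were a −log10 q of 5 or more, peaks above the median signal, other lists, each pool left out, TSS windows of 500 bp and 2.5 kb, the main TSS alone, covered windows of 2 and 25 kb, flanks of 10 and 50 kb, stricter overlaps, peaks closer to a TSS of another coding gene left out and Slc6a11 alone as the astrocyte gene. The promoter search was checked on simulated peaks and found 200 of 200 planted. Values were computed in Python 3.11.15 (pandas 2.3.3, numpy 2.4.6), intervals with scipy 1.17.1 and figures with matplotlib 3.10.9.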

Additional observations from a re-analysis of the deposited data

How the results depend on the processing

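The number of the 5 genes with a promoter peak was 4 in the replicated list and 3 to 5 over all settings. For interneuron genes it was 2, and 1 among peaks above the median signal, where Gad2 was lost, with 1 to 3 when either pool was left out. For astrocyte genes it was 2, 2 to 2 with a pool left out, and 1 with Slc6a11 alone. All coding genes had a promoter peak in 57.9 to 62.5% of cases over the 4 lists. Their share under the other settings is not given here, so the loss of Gad2 cannot be set beside a loss among all coding genes. Mean covered length was 2752 bp at the interneuron genes (1143 to 3121 bp with a pool left out, and 5.93% of the locus as a share) and 2067 bp at the astrocyte genes (1654 to 2122 bp with a pool left out, 3595 bp within 25 kb, 6.36% of the locus and 2850 bp with Slc6a11 alone). The interneuron mean was the higher in the replicated, pool C and both-pools lists, among peaks above the median signal, at a −log10 q of 5 or more and within 25 kb. Within 25 kb it was 3820 against 3595 bp, but the whole Slc32a1 part (1273 bp) was the peak over the Actr5 TSS. The interneuron mean was the lower in pool D, within 2 kb (1399 against 1789 bp) and against Slc6a11 alone. As a share of the locus it was the lower in the replicated list (5.93% against 6.36%), and the higher in pool C (6.77% against 6.43%), pool D (3.34% against 3.24%) and both pools together (6.84% against 6.56%). These shares include the peaks over the TSSs of Actr5 and of Pmm2 and Tmem186. The 27 replicated peaks in the loci became 21 without those closer to a TSS of another coding gene and 14 above the median signal. They became 17 to 28 with a pool left out and 47 with flanks of 50 kb. The 14 of them overlapped by both pools became 8 when at least 50% of the peak had to overlap, 8 when 50% was asked in both directions and 22 with flanks of 50 kb. The share of all replicated peaks under the 50% rules is not given here, so the fall to 8 cannot be read as particular to these loci. For single genes, promoter presence held in 31 of 35 settings, and covered length stayed within the SD of the pools in 24 of 35. That SD comes from 2 pool values, which are themselves among the settings, so the count for covered length does not measure stability. Depth per pool is unknown, so the pool D gaps at Gad2 and Slc32a1 cannot be told apart from limits of detection. No paired analysis was possible because the result comes from no test. The cause of these shifts was not tested.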
